A study of Mus musculus with 6 samples.

Results

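The mouse miRNAs described here carry a number from 5000 up to 7000 in their name. All mouse features of the array with such a number were taken, with any letter or arm, except those of 9 numbers (miR-5100, miR-5117, miR-5118, miR-5126, miR-5128, miR-6354, miR-6366, miR-6394 and miR-6418). This gave 166 members among the 1247 mouse miRNAs on the array, numbered 5046 to 6541. The range was set by name, while the 9 numbers were taken out with earlier results of these data known, so counts over the members depend on that choice. It was set beside the 798 miRNAs on the same array numbered below 1000, let-7 names included. RNA came from 3T3-L1 cells, a mouse embryonic fibroblast line that becomes fat-storing under a hormone cocktail, harvested at day 8. Both groups received isobutyl-methylxanthine, dexamethasone, insulin and rosiglitazone. The 4 control samples had nothing further, and the 2 IL-6 samples had interleukin-6, an inflammatory cytokine, at 1 ng/ml from induction onward. No label states that arrays within a group were separate cultures, so the p-values reflect a spread between arrays that may be technical.

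MicroRNAs are short RNAs that guide Argonaute proteins to messenger RNAs, mainly through bases 2 to 8, the seed. Pairing there lowers the stability or translation of the target. Names were numbered in the order of registration, so the low numbers include the conserved, long-studied families, though they are not made up of these alone. The high numbers hold mostly entries taken later from deep sequencing, many of them mouse-specific. All 7 mesenchymal and all 5 adipocyte marker miRNAs on the lists used were detected on all 6 arrays. None of the 4 muscle, 5 blood, 1 liver or 2 neural markers was detected on any array, and 1 of 6 epithelial markers was. The 1 endothelial marker listed was not on the array. All arrays held day 8 cells, so these markers do not show how far the cells had become fat-storing.

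Mature sequences were found in RefSeq (GRCm38.p6) for 136 of the 166 members, and for 16 of the 26 that were detected. The sequences printed first are those of the members that differed most between slide columns, followed by the most G- and C-rich detected members. Capitals mark the seed, and each runs 5′ to 3′.
miR-5121: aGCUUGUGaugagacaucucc
miR-6385: gCAAGGAUgacagagaggaag
miR-5622-3p: cUUAGCUGgguagugguggugc
miR-6238: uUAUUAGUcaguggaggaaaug
miR-6538: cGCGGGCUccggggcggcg
miR-5131: cGGCGCCCcacggagccccgagc
miR-5130: cUGGAGCGcgcgggcgaggcaggc

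No seed among these 7 was shared with another miRNA of known sequence on the array. miR-5121 lies on the minus strand at chr7:45126925-45126945, inside the ribosomal protein gene Rpl13a. The same bases lie within Snord33, a small nucleolar RNA of the kind that guides methylation of ribosomal RNA, whose interval of 45126864 to 45126945 ends at the same base. It was the only 1 of the 136 late-numbered positions that fell inside another small RNA gene, against 2 of 654 low-numbered ones. miR-6385 lies at chr9:58221155-58221175 on the plus strand, within Pml, which encodes the scaffold of nuclear bodies of that name. miR-5622-3p lies at chr2:152865105-152865126, plus strand, within the spindle assembly factor gene Tpx2. miR-6238 lies at chr7:53891796-53891817, minus strand, with no other gene over it. miR-6538 lies at chr12:26414970-26414988, minus strand, within the ubiquitin ligase gene Rnf144a. miR-5131 lies at chr14:45657972-45657994, minus strand, within Ddhd1, which encodes a phospholipase. miR-5130 lies at chr14:102982608-102982631, minus strand, within Kctd12, which encodes an auxiliary subunit of GABA-B receptors. Of the 16 detected members with a known position, 13 overlapped another gene. Overlap was read from gene intervals without regard to strand, exons or introns. Positions were not analysed here for the other detected members, among them miR-6243.

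The array reads each miRNA with short probes that pair with its 3′ end. Of 350 member probes, 288 belonged to a miRNA of known sequence, and all 288 paired with its last bases. Of them, 205 reached base 8 or further into the seed. No member shared a probe sequence with another miRNA. A total of 151 members had 2 probes, and in all 151 the longer probe was the shorter one with 1 base added. A further 12 members had 3 probes and 3 members had 4. The pairs that follow are the probes behind the slide-column results (miR-6243, miR-5121) and the pairs in which a single base went with detection or with a large step in signal. The capital marks the added base.
miR-6243, 16 bases: cgttcagtcataatcc
miR-6243, 17 bases: cgttcagtcataatccC
miR-5121, 16 bases: ggagatgtctcatcac
miR-5121, 17 bases: ggagatgtctcatcacA
miR-6378, 13 bases: gcgtgtgtcctcc
miR-6378, 14 bases: gcgtgtgtcctccC
miR-6412, 17 bases: tagtagctgaggatggt
miR-6412, 18 bases: tagtagctgaggatggtT
miR-5116, 13 bases: tcaggcggggttc
miR-5116, 14 bases: tcaggcggggttcC
miR-5097, 13 bases: tggcgcctgaaca
miR-5097, 14 bases: tggcgcctgaacaG

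The late-numbered miRNAs were detected less often than the low-numbered ones on every array. The scanner flags each spot as well above background or not. A share of 0.5 of the spots had to carry this flag for a probe to count as detected, and 1 detected probe was enough for a miRNA. Of the 166 members, 25, 26, 23 and 25 were detected on controls 1 to 4, and 26 on either IL-6 array. Of the 798 low-numbered miRNAs, the counts were 203, 211, 194 and 205 on the controls, then 220 and 208 with IL-6. The mean share was 15.2% ± 0.704 (SD, n = 6) for the members and 25.9% ± 1.08 (SD, n = 6) for the low numbers. The per-array shares ran from 13.9% to 15.7% and from 24.3% to 27.6%, and the ranges did not overlap. Signal from dim miRNAs below this call cannot be told from none.

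**Figure D1:**
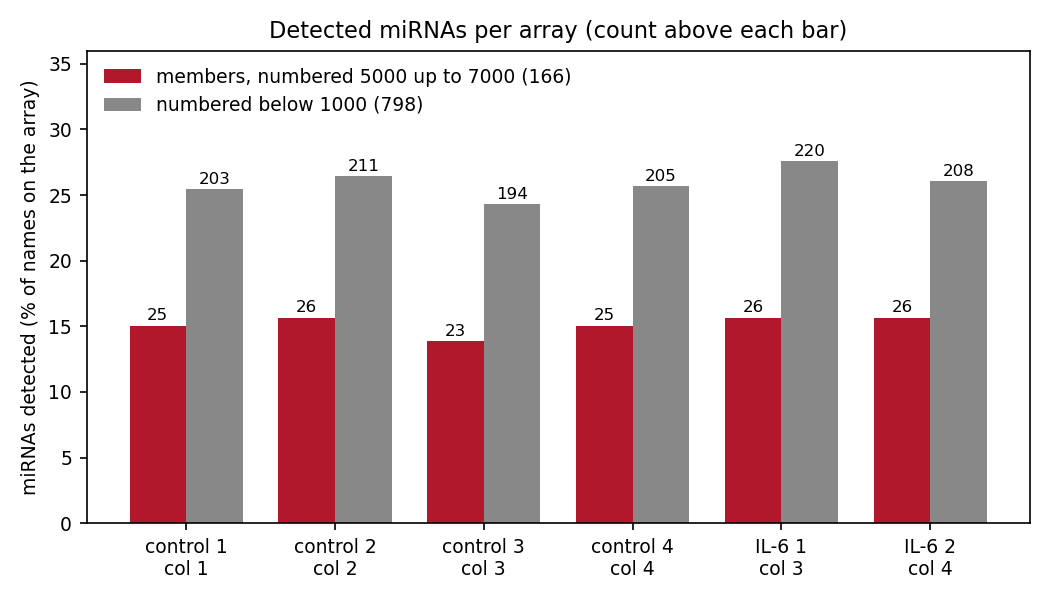
Share of miRNA names detected on each array (y axis, percent) for the 166 members numbered 5000 up to 7000 and the 798 miRNAs numbered below 1000, with the count above each bar and the slide column under each array name. The members' bars lie between 13.9% and 15.7% and the low numbers' between 24.3% and 27.6%.

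The detected share of the members was 14.9% ± 0.758 (SD, n = 4) in controls and 15.7% on both IL-6 arrays. Over all arrays, 23 members were detected on all 6, 140 on none and 3 on some. miR-5116 was detected on 1 of 4 controls and both IL-6 arrays, and miR-6238 and miR-6349 each on 3 of 4 controls and both IL-6 arrays. By the scanner software's own call, 3 further members, miR-5113, miR-6351 and miR-6370, named after their calls were seen, were detected on both IL-6 arrays but no control. By that call this held for 8 of all 1247 mouse miRNAs. By the main call none of the 3 was detected on any array. miR-6351 lay at the floor, the lowest log2 value used (2.64), on all 6 arrays, miR-5113 on 5 and miR-6370 on 3. The 9 excluded numbers, which are 11 names on the array, were unlike the members in this: 10 of the 11 were detected, and 5 of these (miR-5117-5p, miR-5118, miR-6354, miR-6394 and miR-6418-5p) with IL-6 alone, on both arrays. That no member was detected with IL-6 alone by the main call is therefore set by the choice of members. With them put back, 36 of 177 names (20.3%) were detected on at least 1 array, against 26 of 166 (15.7%) without them and 221 of 798 (27.7%) for the low numbers.

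Within the members, detection was uneven along the numbering. Of those numbered 5000 up to 5500, 12 of 39 (30.8%) were detected on at least 1 array, a share above that of the low numbers. Of those numbered 5500 up to 6000, 2 of 28 (7.14%) were detected. The shares were 3 of 8 (37.5%) for 6000 up to 6300 and 9 of 91 (9.89%) for 6300 up to 7000. The excluded numbers all fall in the first and the last of these ranges, and 10 of their 11 names were detected. The shares of those 2 ranges are therefore lower than with the excluded numbers put back. These shares are descriptions of names on 1 array design and were not tested.

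Detected and undetected members differed in base composition. The mature sequences of the 16 detected members with a known sequence had a median G and C content of 63.4%, ranging from 36.4% to 94.7%, against 50% for the 120 undetected ones. For the low numbers the medians were 47.8% (183 detected) and 45.5% (471 undetected). The probes differed likewise. Those of detected members had a median length of 13 bases and 69.2% G and C, and those of undetected members 16 bases and 50%. The low-numbered medians were 16 and 17 bases. The probes of detected members were thus both shorter and richer in G and C, and the part of either in detection was not tested. miR-6538, printed above, had the most G- and C-rich mature sequence of the detected members, and its 2 probes of 9 and 10 bases were 100% G and C. Of the 16, miR-6238, at 36.4%, had the lowest share.

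The probes of a detected member did not always agree on detection. All probes were detected for 18 of 26 detected members (69.2%), against 169 of 221 low-numbered miRNAs (76.5%). In the other 8 members a single probe carried the detection. With the excluded numbers put back, all probes were detected for 22 of 36 detected names (61.1%). Among detected members with a pair of probes 1 base apart there were 25 pairs: both probes were detected in 17, the longer alone in 7 and the shorter alone in 1. Among 166 such low-numbered pairs both were detected in 149, the longer alone in 17 and the shorter alone in none. Probe signals differ with the probe as well as with the RNA, so they are compared within a pair and not read as amounts.

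The longer probe of miR-6378, with a C added, gave 180, 181, 148 and 248 scaled intensity units on controls 1 to 4, and with IL-6 196 and 251. The shorter probe gave 0.83, 1.21, 0.91 and 2.48 on the controls, and with IL-6 1.69 and 2.94, never detected. The longer probe was detected and the shorter one was not on 6 of 6 arrays. What the longer probe bound was not tested. For miR-6412 the longer probe, with a T added, lay between 64.6 and 86.2, while the shorter one lay between 4.72 and 7.26 and was not detected. miR-6238, miR-6349 and miR-5621-5p also had the longer probe alone, as did miR-5099 and miR-6402, named here to complete the 7. miR-5116 ran the other way. Its shorter probe gave up to 13.7 over the 6 arrays and was detected on 3, while the longer one gave 4.17 to 6.58 and was detected on none.

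Where 2 or more probes of a member were detected, most gave signals within 2-fold of each other. The log2 ratio of the brightest to the dimmest probe had a median of 0.50 over 18 members, a 1.42-fold gap, against 0.68 over 187 low-numbered miRNAs, a 1.60-fold gap. The ratio was above 1 in 5 members (27.8%) and 62 low-numbered miRNAs (33.2%), with maxima of 1.73 and 3.96. Counting undetected probes as well raised the medians to 0.89 and 0.83. With the excluded numbers put back, the median over detected probes was 0.55 for 23 names. Of these, 8 (34.8%) were above 1 and the maximum was 3.10, so the comparison with the low numbers depends on the choice of members. The largest member ratio was that of miR-5097, whose pair ends in an added G: the shorter probe gave 2775 ± 68.4 and the longer 9205 ± 321 units in controls (SD, n = 4). miR-5131, miR-5130, miR-5115 and miR-5112 followed. In the 17 pairs with both detected the longer probe was the brighter in 14, with a median log2 step of 0.48, and in 144 of 149 low-numbered pairs, with a median of 0.61. The longer probe of miR-6360 and of miR-6368 was dimmer than the shorter, and the 2 probes of miR-6385 were alike at 53.5 and 53.6 units over all arrays.

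**Figure D2:**
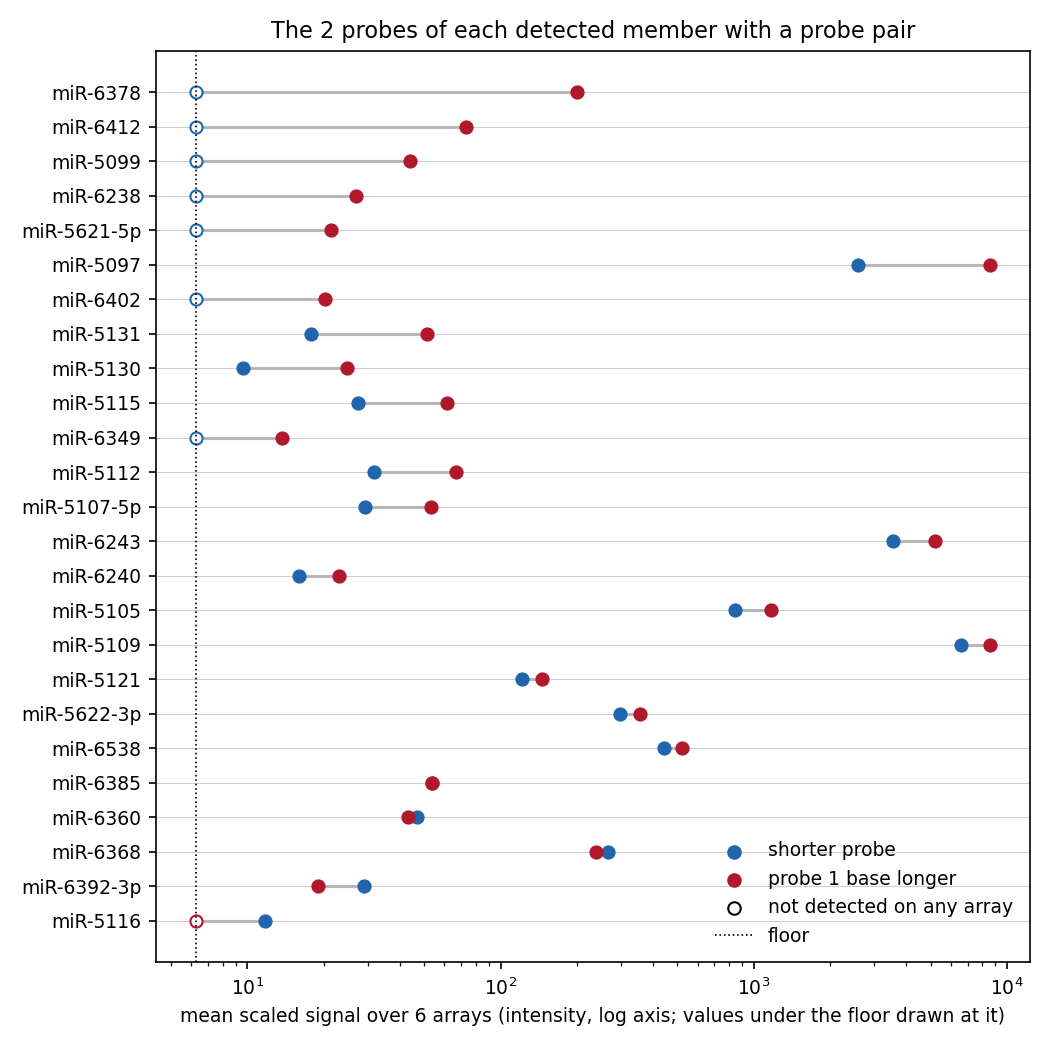
Mean scaled signal over the 6 arrays (x axis, log scale) of the shorter and the 1-base-longer probe of the 25 detected members with such a pair, ordered by their ratio. Open circles were not detected on any array and values under the floor are drawn at it, so 7 members show only the longer probe and miR-5116 only the shorter one.

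Probes of a member that were both detected also moved together between groups. The signs of IL-6 minus control differed between probes in 1 of 17 members, miR-5105, whose probes gave -0.05 and 0.06 on the log2 scale. For the low numbers the signs differed in 16 of 171. The median gap between a miRNA's probe differences was 0.07 for the members and 0.03 for the low numbers. For miR-5121 the shorter and longer probes gave 1.68 and 1.61, for miR-6243 0.96 and 0.92, and for miR-6385 0.27 and 0.26. The results on these 3 miRNAs were thus close on either probe.

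Among the members, signals differed with the position of the array on the slide. The positions were read from the numbers that end the scanner file names, and no label states them, so each slide-column result rests on that reading. On it, the 6 arrays lay on 1 slide. Controls 1 to 4 took columns 1 to 4 of the first row, and IL-6 1 and 2 took columns 3 and 4 of the second row, so row and group cannot be told apart. Columns 1 and 2 held controls only, and columns 3 and 4 held 1 array of each group. What array position stands for was not tested, and each column also holds its own RNA samples.

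miR-5121 gave log2 signals of 4.80, 5.03, 5.84 and 8.03 on controls 1 to 4, and 6.89 and 8.24 on IL-6 1 and 2. Control 4 was far above the other controls and above IL-6 1. The highest array of each group was the one in column 4. Control 4 exceeded the mean of controls 1 to 3 by 2.80, a 6.98-fold gap and the largest of all 299 tested miRNAs. miR-5121, miR-6243 and miR-6385 were named for slide column effects with earlier results of these data known. Their gaps and ranks therefore describe that choice and lend no support to a column effect. The coefficient of variation between replicate spots of its probes was 6.33% to 14.5% on controls 1 to 3 and 6.89% and 7.36% on control 4.

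miR-6243 gave 11.24, 11.27, 11.43 and 12.58 on controls 1 to 4, and with IL-6 12.20 and 12.93. Controls 1 to 3 lay close together, and control 4 lay above IL-6 1. Its excess over the other controls was 1.26, a 2.40-fold gap and the third largest of 299. miR-6385 gave 5.60, 5.32, 5.22 and 6.26 on controls 1 to 4, and 5.56 and 6.16 on IL-6 1 and 2. Here control 4 was the highest of all 6 arrays, with an excess of 0.88, a 1.85-fold gap and the seventh largest. The groups overlapped for all 3 miRNAs.

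Control 4 was also the highest control for miR-5622-3p and miR-6238. miR-5622-3p gave 7.92, 7.74, 7.95 and 8.95 on controls 1 to 4, and with IL-6 8.29 and 8.78. miR-6238 gave 3.15, 2.93, 3.18 and 4.25 on the controls, and with IL-6 4.11 and 4.36, close to the floor of 2.64. The excess of control 4 was 1.08 and 1.17. miR-5115 differed in its columns: 4.79 and 4.72 on controls 1 and 2, 5.63 and 5.75 on controls 3 and 4, and 6.02 and 5.43 on IL-6 1 and 2. Both controls in columns 3 and 4 were above both in columns 1 and 2, and its higher IL-6 array was that of column 3.

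**Figure D3:**
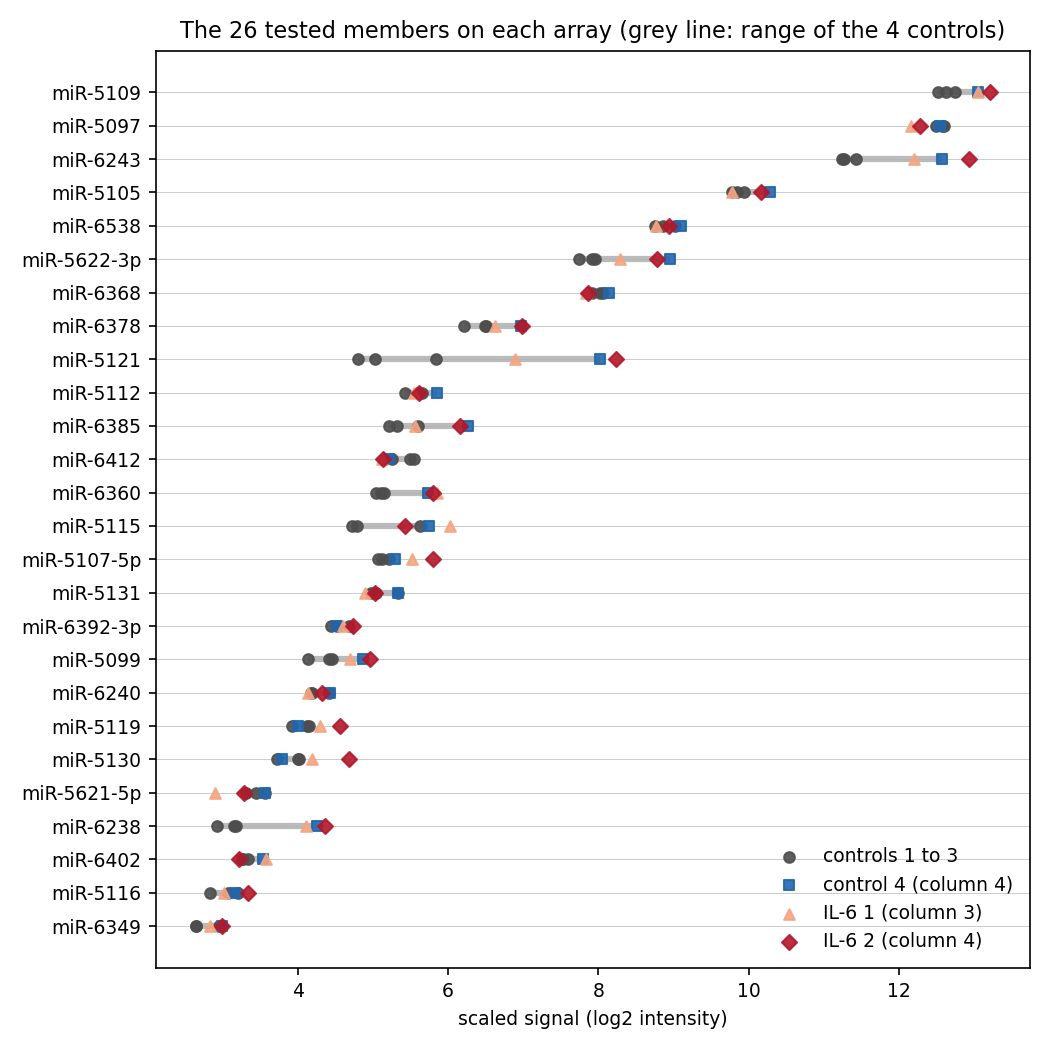
Scaled log2 signal (x axis) of the 26 tested members on each of the 6 arrays, ordered by control mean; the grey line spans the 4 controls. For miR-5121, miR-6243, miR-6385, miR-5622-3p and miR-6238 control 4 stands apart from controls 1 to 3, whereas for miR-5097 the 4 controls lie within 0.11 of each other.

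Across the 26 tested members, control 4 was the highest control for 20 (76.9%), against 46 of 208 low-numbered miRNAs (22.1%) and 101 of 299 tested miRNAs (33.8%). The median excess of control 4 over controls 1 to 3 was 0.25 for the members, from -0.21 to 2.80, against -0.08 for the low numbers and -0.01 for all tested. An excess above 0.5 was found in 9 members (34.6%) and 9 low-numbered miRNAs (4.33%). Those members include miR-5121, miR-6243 and miR-6385, which were named for this effect. An excess above 1 was found in 4 members, miR-5121, miR-6243, miR-6238 and miR-5622-3p, and in 1 low-numbered miRNA, miR-494-3p, named here after its value was seen. The median SD over the 4 controls was 0.18 for the members and 0.11 for the low numbers. The 55 tested miRNAs numbered 1000 up to 5000 lay between, with control 4 the highest control in 32 and a median excess of 0.17. The 10 tested names among the excluded numbers, which fall in the same number range as the members, had control 4 as the highest control in 3, a median excess of 0.05 and none above 0.5. Arrays were scaled by their bright probes, most of which are not members, so these shifts are relative to that scaling.

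The IL-6 arrays gave the same order of columns. IL-6 2, in column 4, was above IL-6 1, in column 3, for 23 of 26 members (88.5%) and 92 of 208 low-numbered miRNAs (44.2%). Control 4 was above control 3 for 21 members and 64 low-numbered miRNAs. Column 4 was the higher in both groups for 18 members (69.2%), 43 low-numbered miRNAs (20.7%) and 99 of 299 tested miRNAs (33.1%). The median of column 4 minus column 3 was 0.32 in controls and 0.21 in the IL-6 arrays for the members. For the low numbers it was -0.10 and -0.02. In the 55 tested miRNAs numbered between the low numbers and the members, IL-6 2 was above IL-6 1 in 44 (80%). In 39 of these 55 control 4 was above control 3, and in 33 (60%) column 4 was higher in both groups. Their medians were 0.20 in controls and 0.18 in the IL-6 arrays. For the 10 tested excluded names these counts were 8, 6 and 5, with medians of 0.05 and 0.21. The column order was thus not particular to the members. The 2 column differences, which share no array, correlated across miRNAs with r = 0.69 and rho = 0.47 over the 26 members and r = 0.48 and rho = 0.43 over the 208 low-numbered miRNAs. These describe miRNAs on the same 4 arrays and common scaling factors, which are not independent replicates. The percentiles used for scaling were 248 and 343 on controls 3 and 4, and 440 and 369 on IL-6 1 and 2. Counts of the higher column depend on these factors and are not given under other scalings.

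**Figure D4:**
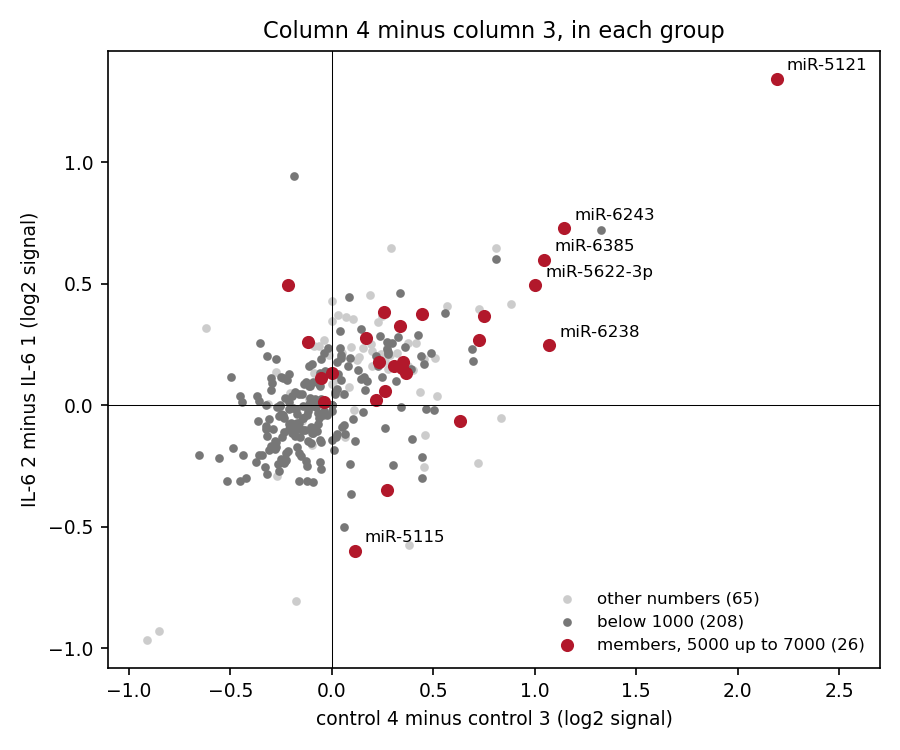
Column 4 minus column 3 on the log2 scale in the controls (x axis) and in the IL-6 arrays (y axis), 1 point per tested miRNA. Of the 26 members, 18 lie in the upper right part, with miR-5121 farthest out at 2.19 and 1.34; miR-5115 lies at 0.11 and -0.60.

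With all 6 arrays, no member passed the threshold for a difference between IL-6 and control. The limma fit over all 299 tested miRNAs was two-sided, and p-values were adjusted by Benjamini-Hochberg and called under 0.05. It called 0 of 26 members higher, where 0.334% of all tested miRNAs were called, and 0 lower, where 0% were. At an unadjusted limma p under 0.05, 5 members were higher and 3 lower, against 10.7% and 12% of all tested miRNAs. Both IL-6 arrays lay above all 4 controls for 4 members and below them all for 4, against backgrounds of 13% and 21.7%. The differences ranged from -0.38 to 1.64 with a median of 0.19, and 18 were above 0. The median was -0.06 for the low numbers and -0.02 for all tested miRNAs. Without scaling between arrays the differences of 281 of 299 tested miRNAs rose by the same 0.294, within 0.001, and 24 of 26 members were above 0. With the 75th percentile of all mouse probes as the scale, a shift of -0.11, and with quantile normalization 15 were above 0. After normexp background correction, with an offset of 50 added before scaling, 9 were above 0 and 16 below. That offset exceeds the signal of dim members, and after scaling its size differs between arrays, so it alters their log2 differences.

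The members with the smallest p were not those with the large column differences. miR-5097 gave 12.57, 12.49, 12.59 and 12.54 on the controls, and with IL-6 12.16 and 12.28. Both IL-6 arrays lay below every control. Its difference of -0.33 ± 0.06 (SE), a 1.26-fold lower signal, had a limma adjusted p of 0.0795. miR-5107-5p gave 5.21, 5.07, 5.13 and 5.29 on the controls, and with IL-6 5.52 and 5.80, with no overlap. Its difference of 0.49 ± 0.11 (SE), 1.40-fold, had a limma adjusted p of 0.0845. Both kept their direction within column 3 (-0.43 and 0.40) and within column 4 (-0.26 and 0.51), where there is 1 array per group and no test. Both depended on the processing. After normexp background correction the difference of miR-5107-5p was 0.06 (limma adjusted p 0.765), and without scaling that of miR-5097 was -0.03 (limma adjusted p 0.926). The probes of miR-5107-5p had control means of 26.1 and 46.3 scaled units, below the normexp offset of 50. An added constant of that size shrinks a log2 difference by construction.

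The IL-6 arrays were also separate from the controls for miR-5119, miR-5130 and miR-6360 on the upper side. miR-5119 (within Cdk12, a kinase gene of transcription elongation) gave 4.15, 3.93, 4.12 and 4.01 against 4.30 and 4.56. miR-5130 gave 4.01, 3.72, 4.01 and 3.80 against 4.18 and 4.68. miR-6360 gave 5.15, 5.04, 5.10 and 5.74 against 5.86 and 5.80, so that control 4 lay nearer to the IL-6 arrays than to the other controls. Their limma adjusted p-values were 0.106, 0.126 and 0.175. On the lower side were miR-5621-5p, miR-6368 and miR-6412. miR-5621-5p gave 3.56, 3.45, 3.31 and 3.57 against 2.90 and 3.28. The differences were -0.38, -0.19 and -0.24, with limma adjusted p-values of 0.170, 0.214 and 0.265. After normexp correction miR-5119 and miR-5130 both turned to -0.04. The scaled probe signals of both lay below the normexp offset of 50 on every array.

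miR-5121 had the largest difference, 1.64 ± 0.97 (SE), 3.11-fold, with a limma adjusted p of 0.356. Within column 3 the difference was 1.06 and within column 4 it was 0.21. For miR-6243 the difference was 0.93 ± 0.44 (SE), 1.91-fold, with a limma adjusted p of 0.254, and 0.77 and 0.35 within the 2 columns. For miR-6385 it was 0.26 ± 0.33 (SE) with a limma adjusted p of 0.693, and 0.35 and -0.10 within columns. With the column as a block the 3 differences were 0.63, 0.56 and 0.12, with limma adjusted p-values of 0.330, 0.238 and 0.638. Over the 26 members the median difference was 0.19 within column 3, with 18 above 0, and -0.04 within column 4, with 12 above 0.

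Leaving out control 4 changed which members were called. Without it, 6 members were called higher and 1 lower, where 7.69% and 2.68% of all tested miRNAs were. miR-5121 then differed by 2.34 (limma adjusted p 0.0465), miR-6243 by 1.25 (0.0456), miR-6238 by 1.15 (0.0124), miR-6360 by 0.73 (0.0124), miR-5107-5p by 0.52 (0.0456) and miR-5109 by 0.50 (0.0456). miR-5097 differed by -0.33 (0.0456). In this comparison no control from column 4 remains, while IL-6 2 lies in that column. No member was called when any other single array was left out. The median of 0.19 became 0.07 without IL-6 2.

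**Figure D5:**
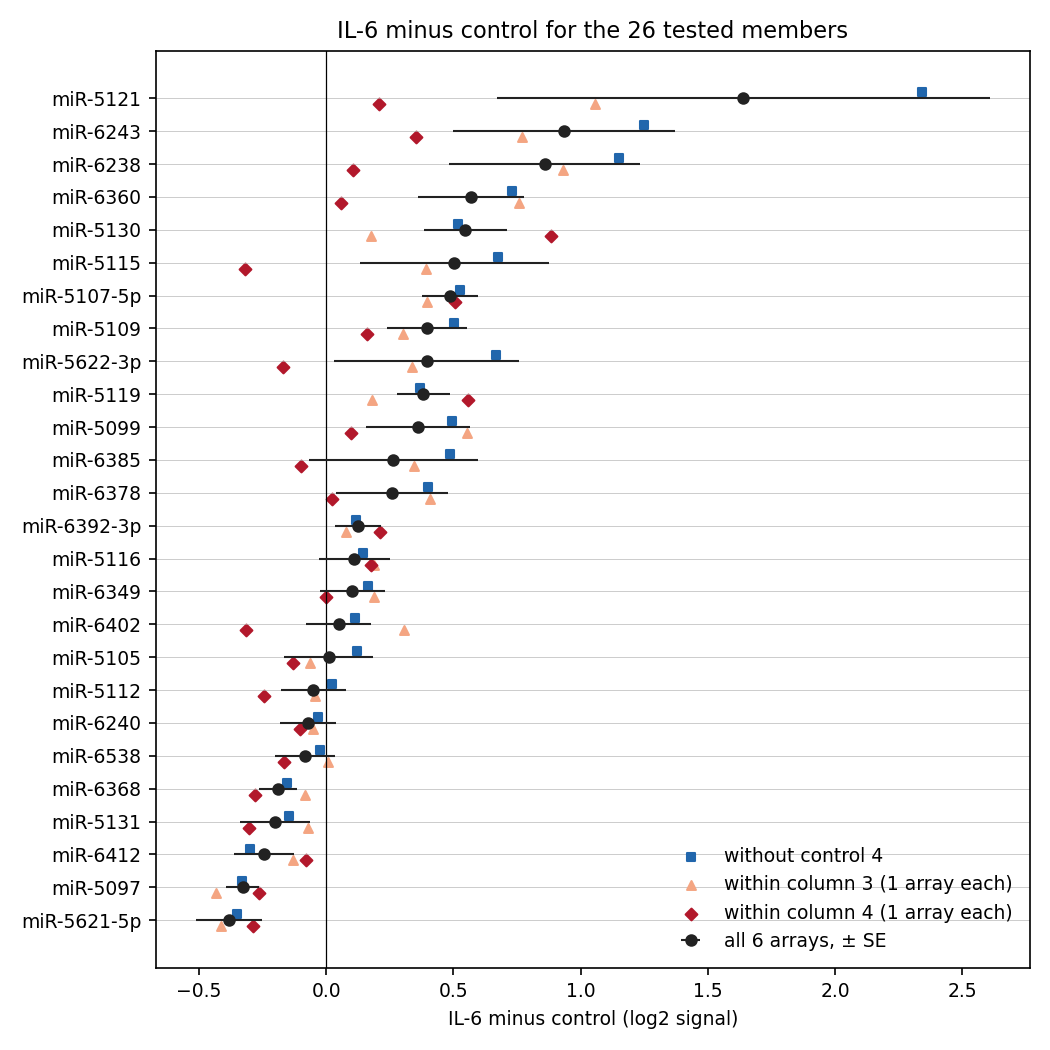
IL-6 minus control on the log2 scale (x axis) for the 26 tested members: all 6 arrays with limma's standard error, without control 4, and within columns 3 and 4, each with 1 array per group. For miR-5121, miR-6243, miR-6238 and miR-6360 the value within column 4 (0.21, 0.35, 0.10 and 0.06) is far below that without control 4 (2.34, 1.25, 1.15 and 0.73).

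Of the other members, miR-5109 gave 12.62, 12.52, 12.75 and 13.05 on the controls, and with IL-6 13.05 and 13.21. Its difference was 0.40 ± 0.16 (SE) with a limma adjusted p of 0.212. miR-6238 differed by 0.86 ± 0.38 (SE, limma adjusted p 0.241). miR-5622-3p differed by 0.39 ± 0.36 (SE, limma adjusted p 0.572) and miR-5115 by 0.50 ± 0.37 (SE, limma adjusted p 0.467). miR-5105, miR-5112, miR-5116, miR-6349 and miR-6538 differed by between -0.08 and 0.11, less than their control SDs of 0.16 to 0.23. miR-5131 and miR-6378 differed by -0.20 and 0.26. The 4 remaining tested members, miR-5099, miR-6240, miR-6392-3p and miR-6402, gave between -0.07 and 0.36.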

How the data were processed

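The deposited intensity values per spot had, per the file headers, a fitted background subtracted by Agilent Feature Extraction 10.10.1.1 and can be negative. The deposited spot flags, another kind of value, mark spots as well above background, uneven or outlying. Raw mean and background intensity columns served the normexp alternative (offset 50). The deposited series table repeats the total signal that the scanner gives per probe (largest difference 0), with column medians of 0.0937, 0.104, 0.0777, 0.0781, 0.0727 and 0.117, uncentred and linear. Each array held 49880 mouse spots over 3105 probes. Between 1863 and 2180 uneven or outlying spots and 2164 control spots were left out, and none was saturated. Depth does not apply to arrays, and their number limits the precision.

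Kept spots were averaged per probe, scaled by each array's 75th percentile of the 502 probes detected on all arrays, averaged per miRNA, floored at 6.25 scaled units and put on the log2 scale. The floor understates changes of dim miRNAs. The 299 miRNAs detected on all 4 controls or both IL-6 arrays, including 26 members, were fitted with limma 3.58.1 in R 4.3.3 (lmFit, eBayes with trend), tested on simulated data. Alternatives concerned background, scaling, summary, filter, floor, trend, slide column, replicate block and left-out arrays. Members, marker lists and tests were chosen with earlier results of these data known. The text names miR-5121, miR-6243 and miR-6385, the 10 brightest members, up to 6 per direction by p, partly detected members, the 5 with the largest probe ratio, members whose probes differed in sign, and hairpins with both arms detected. Other names are marked as added.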

Additional observations from a re-analysis of the deposited data

Results flagged for a closer look

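Control 4 stood apart from the other 3 controls for 2 of the 22 named members checked. For miR-6243 it read 12.58 on the log2 scale, and the gap to the next control took up 0.858 of the range of the 4 controls. For miR-6360 it read 5.74, and the gap took up 0.839 of the range. Chance alone marks about 1 in 20 groups in this way. miR-5121, with the widest control range of 3.23, was not marked, because control 3 lay between control 4 and the other controls.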

How the results depend on the processing

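The alternatives moved the counts of members called, from 0 higher and 0 lower, as follows. There was 1 higher with the brightest probe (miR-5107-5p), 3 without scaling (miR-5130, miR-6238 and miR-6243), and 1 with the excluded numbers put back (miR-5117-5p). Of all 299 tested miRNAs, 4.68% were called higher with the brightest probe, 11.4% without scaling and 0.334% in the main fit. Leaving out each array in turn gave 0 to 6 higher and 0 to 1 lower, the 6 and the 1 without control 4. In that fit 7.69% of all tested miRNAs were called higher and 2.68% lower. The median difference of 0.19 became 0.49 without scaling, -0.013 with normexp and -0.040 within column 4, and ranged from 0.07 to 0.27 over the left-out arrays. The detected share of 15.2% became 17.4% by the scanner software's own call, 13.5% when all kept spots had to be above background and 18% with the excluded numbers, and 15.1% to 15.4% with an array left out. That of the low numbers, 25.9%, became 29.2%, 23.7% and, below 500, 28.4%, and 25.6% to 26.2% with an array left out. The probe ratios of 0.50 and 0.68 became 0.89 and 0.83 over all probes, and with an array left out 0.46 to 0.52 and 0.66 to 0.69. With the excluded numbers put back, the ratio of 0.50 became 0.55. Single members turned sign as follows. Without scaling, which added 0.294 to the difference of 24 of 26 members and so turned small negative values by construction: miR-5112 0.24, miR-5131 0.091, miR-6368 0.10, miR-6412 0.049 and miR-6538 0.21. With normexp: miR-5116 -0.0036, miR-5119 -0.041, miR-5130 -0.035, miR-6238 -0.012 and miR-6385 -0.013. miR-6349 had no value with normexp, every array being at the floor. With quantile normalization: miR-5116 -0.016 and miR-6349 -0.11. With the 75th percentile over all mouse probes: miR-5105 -0.10 and miR-6349 -0.0055. With the total signal or the series table: miR-5112 0.045 and miR-6538 0.013. In columns 3 and 4 only, or with the column as a block: miR-5105 -0.10. Over the left-out arrays miR-5105 ran from -0.18 to 0.20, miR-5112 from -0.12 to 0.024, miR-5116 from -0.051 to 0.27, miR-6385 from -0.036 to 0.56 and miR-6538 from -0.17 to 0.0059. The normexp offset of 50 was added before scaling. It thus became a different constant on each array, large beside the signals of dim members. How much this constant had to do with the turned signs was not tested. Apart from the common shift without scaling, no other cause was tested either. With the replicate number as a block, 0 members were called, 8 were higher and 1 lower at an unadjusted limma p under 0.05, the median was 0.21 and miR-5112 turned to 0.043. Of all 299 tested miRNAs, 36 were higher and 14 lower at that unadjusted threshold. Control 1 minus control 2 correlated at -0.33 across miRNAs with IL-6 1 minus IL-6 2. These 2 differences come from different slide columns, so whether the numbers pair the samples cannot be told from them. Dim members are limited by the floor.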

Other observations

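Members named with and without an arm differed in detection. Of 124 members named without an arm, 22 (17.7%) were detected on at least 1 array, and of 42 with an arm, 4 (9.52%). For the low numbers the shares were 22 of 78 (28.2%) and 199 of 720 (27.6%). Arm naming overlaps with number range. Of the members numbered 5500 up to 6000, all but miR-5709 and miR-5710 carry an arm, and 2 of 28 were detected. Arm and range were not separated. None of the 21 member hairpins with both arms on the array had both arms detected. A seed was shared with another miRNA on the array by 4 detected members: miR-6240 with miR-330-3p, miR-6349 with miR-206-3p and miR-6382, miR-6368 with miR-6404 and miR-6405, and miR-6402 with miR-5626-3p. None of those partners was detected on any array. These relations were chosen after the data were seen and were not tested.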
